A study of Mus musculus with 29 samples.

Results

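*Nrl*, *Maf*, *Mafg*, *Mafk*, *Mef2a*, *Mef2b*, *Mef2c* and *Mef2d* encode the rod factor NRL, 3 other MAF factors and the 4 MEF2 factors. These 8 genes were taken by symbol from an RNA-seq table of 24062 mouse genes, and all 8 were among the 14024 genes that passed the filter on low counts. In a table of 110715 accessible regions from ATAC-seq, which marks open chromatin by transposase insertion, 84 regions had the transcription start site (TSS) of one of these genes as their nearest TSS. RNA-seq covered 15 libraries, 3 for each of 5 populations: bipolar cells of all types (pan-BC), those that depolarize to light (ON-BC), those that hyperpolarize (OFF-BC), rods, and blue cones. ATAC-seq covered 12 libraries, 2 from each of the same populations and 2 from green cones.

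All cells were sorted from adult mouse retina by fluorescence. Pan-BC for RNA-seq came from *Otx2*-GFP+/- mice at postnatal day 44 to 47, in which a GFP knock-in occupies 1 *Otx2* allele. Pan-BC for ATAC-seq (day 43 to 44) and all ON-BC and OFF-BC (day 42 to 48) are labelled *Otx2*-GFP+/- and *Grm6*-YFP+/+, with a YFP transgene under the *Grm6* promoter separating ON from OFF cells, and OFF-BC were sorted again after the initial sort. Rods were labelled *Nrl*-eGFP, blue cones *Nrl*-eGFP with *Nrl*KO, and green cones *Opn1mw*-GFP, all at day 56. The blue cones are therefore photoreceptors that lack *Nrl* and stand in for *Opn1sw*-expressing cones, and they share with the rods an eGFP reporter under the *Nrl* promoter, which green cones and bipolar cells do not carry. The photoreceptor libraries came from an earlier study, so that cell class, study and age cannot be told apart between bipolar cells and photoreceptors.

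MAF factors are basic leucine zipper proteins. The large MAF factors, NRL and c-MAF (*Maf*) among them, carry an activation domain, whereas the small MAF factors MAFG and MAFK lack one and act mostly as partners of the CNC family. NRL works with the homeodomain factor CRX to direct the rod program, and photoreceptors without it develop as short-wavelength cones. MEF2 proteins are MADS-box factors that bind A/T-rich sites, and their activity is set by class II histone deacetylases, which repress them, and by calcium signalling through calcineurin. MEF2D and MEF2C are both known in photoreceptors, where MEF2D works together with CRX.

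Counted reads per library ran from 12329548 to 26266746 for RNA-seq and from 4176776 to 12345845 for ATAC-seq. Values below are normalized counts, that is, reads divided by a size factor for each library, and errors are SDs over 3 libraries. Bipolar markers were highest in bipolar cells. Their 6 genes summed to between 113735 and 122365 normalized counts in pan-BC and to between 7220 and 8090 in rods. In blue cones they summed to between 32246 and 37419, and *Cabp5* alone averaged 27234 there. In rods *Cabp5* averaged 275. The sum thus set pan-BC apart less clearly from blue cones than from rods, a difference that rested on *Cabp5*. Rod RNA was present outside rods. Of 6 rod markers (*Gnat1*, *Pde6a*, *Pde6b*, *Cnga1*, *Gngt1*, *Nr2e3*), none was at 0 in any population, and their levels as a percentage of the rod mean ran from 0.397 to 9.80 in pan-BC (median 0.696), from 0.325 to 9.0 for ON-BC (median 0.626), from 0.0485 to 7.21 for OFF-BC (median 0.0661) and from 0.172 to 49.2 for blue cones (median 0.700). Cone RNA was present as well: 7 cone markers summed to between 44642 and 70809 normalized counts in pan-BC, 5104 and 5877 in ON-BC, and 29870 and 103966 in OFF-BC. OFF-BC library 3 stood apart, with the highest cone sum and with *Arr3*, cone arrestin, at 7782 against 782 and 1294 in the other OFF-BC libraries, and *Grm6*, the ON bipolar glutamate receptor, at 593 against 145 and 64.9. Calls of members between ON-BC and OFF-BC in RNA-seq are therefore also given without it, and the part of cone RNA in them was not tested. In sorted bulk samples, a smaller number of cells of a type and less RNA per cell cannot be told apart.

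*Nrl* and *Mef2c* were the members with the highest level per length of exon in rods, and both were far lower in every other population. *Mef2d* was equally high in rods and blue cones and low in bipolar cells. *Maf* went the other way, with its lowest counts in rods, and the means of *Mafg*, *Mafk*, *Mef2a* and *Mef2b* differed by less between populations than those of the other 4. Against a log2 fold change of 1 (limma, Benjamini-Hochberg adjusted over all genes tested, called at 0.05), 6 of 8 members differed between pan-BC and rods, where 43.6% of all genes tested were called. Of these 6, *Maf* and *Mef2b* were higher in pan-BC (background 27.8%) and *Nrl*, *Mef2c*, *Mef2d* and *Mafk* were higher in rods (15.8%). Between pan-BC and blue cones 4 of 8 were called (background 36.3%), *Mafg* higher in pan-BC (22.7%) and *Nrl*, *Mef2d* and *Mafk* higher in blue cones (13.7%). Rods and blue cones differed at 3 of 8 (15.9%), *Nrl* and *Mef2c* on the rod side (4.63%) and *Maf* on the blue cone side (11.3%). ON-BC exceeded OFF-BC at 3 of 8 (6.55% for either direction, 2.95% for this one), *Nrl*, *Mef2c* and *Maf*, and OFF-BC exceeded ON-BC at none (3.60%). The libraries of the 2 populations did not overlap for 8 of 8 members between pan-BC and rods (83.7% of all genes tested), 7 of 8 between pan-BC and blue cones (78.4%), 5 of 8 between rods and blue cones (60.9%) and 5 of 8 between ON-BC and OFF-BC (42.2%). These comparisons share libraries and are not independent.

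**Figure D1:**
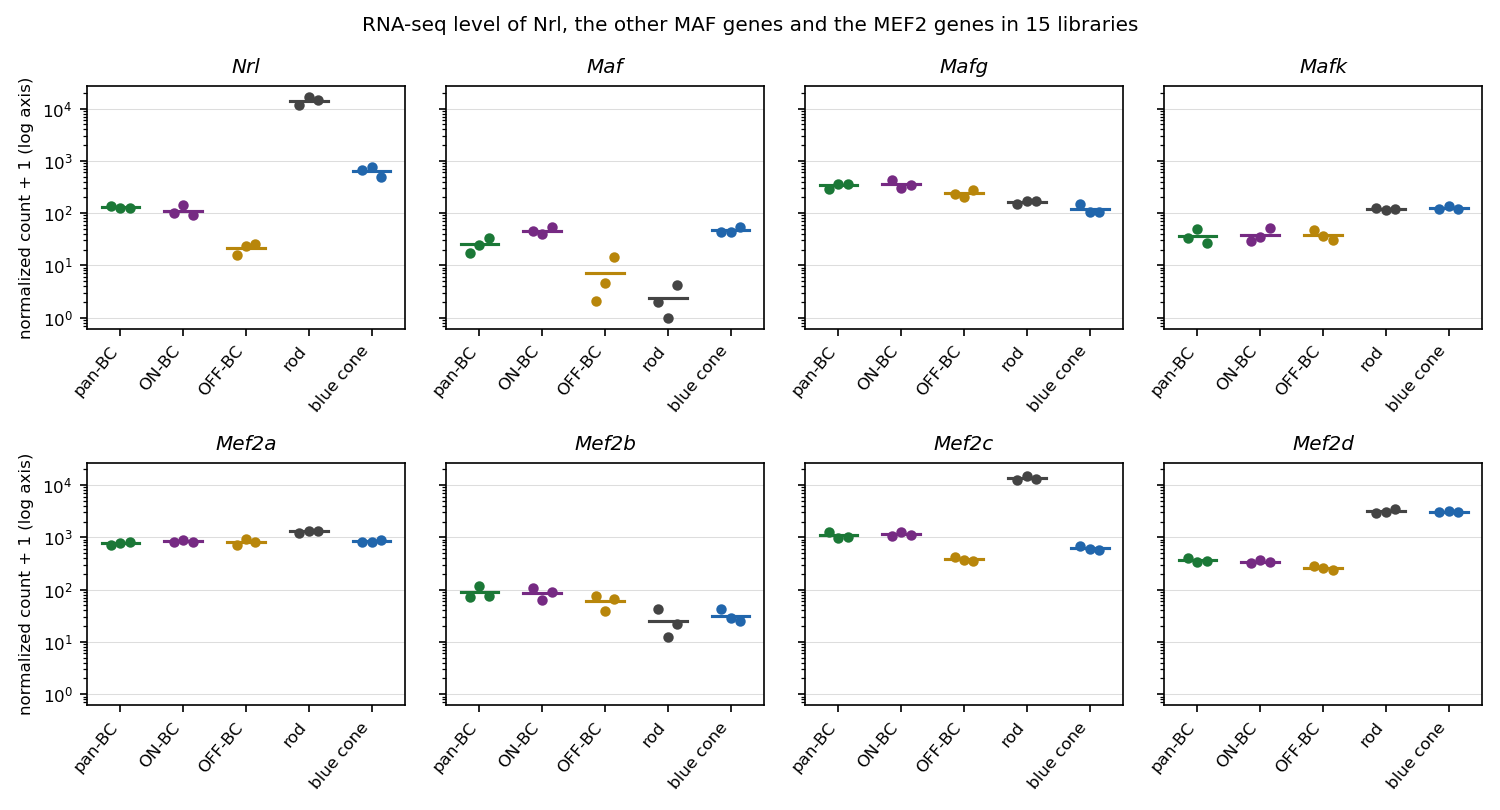
Normalized counts plus 1 of the 8 genes on a log axis, by population, with 1 point per RNA-seq library and a bar at the mean of 3 libraries. The 3 rod libraries stand above all others for *Nrl* and *Mef2c*, rods and blue cones lie together for *Mef2d*, and rods are lowest for *Maf*.

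*Nrl* (GRCm38 chr14:55518978-55524981, minus strand) encodes the leucine zipper factor required for rod fate. It had 11476, 16599 and 14469 normalized counts in the rod libraries, against 657.3, 764.1 and 485.5 in those of blue cones. The pan-BC libraries had 133.0, 126.1 and 126.0, the ON-BC libraries 99.06, 139.1 and 92.34, and the OFF-BC libraries 14.53, 22.83 and 24.28. Rods did not overlap any other population, and neither did blue cones or OFF-BC, whereas pan-BC and ON-BC overlapped. The rod mean was 110-fold the pan-BC mean (log2 fold change of pan-BC against rods -6.76, standard error 0.22, limma adjusted p = 3.61e-13). Blue cones were 4.95-fold above pan-BC (-2.27, standard error 0.22, adjusted p = 6.03e-05). These blue cone values rest on 874, 1007 and 656 reads counted over the whole gene, which do not show which exons of the *Nrl*KO allele they come from. ON-BC exceeded OFF-BC 5.36-fold (2.38, standard error 0.22, adjusted p = 0.000174), and without OFF-BC library 3 the *Nrl* difference was 2.51 (adjusted p = 0.000206).

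Among the bipolar populations, *Nrl* and the rod markers were lowest in OFF-BC, to unlike extents. Relative to the rod mean, *Nrl* stood at 0.905% in pan-BC (libraries 0.889 to 0.938), 0.777% in ON-BC (libraries 0.651 to 0.981) and 0.145% in OFF-BC (libraries 0.102 to 0.171). *Gnat1*, rod transducin, stood at 1.02%, 0.865% and 0.0751% in the same order, and *Cnga1*, a subunit of the rod cyclic nucleotide-gated channel, at 0.767%, 0.785% and 0.0754%. The highest marker, *Gngt1*, stood at 9.80%, 9.0% and 7.21%. In pan-BC and ON-BC, *Nrl* fell within the range of the 6 rod markers, also without *Gngt1*. In OFF-BC it lay above all of them but *Gngt1* (*Pde6a* 0.0570%, *Pde6b* 0.0519%, *Nr2e3* 0.0485%). The part that rod RNA has in the bipolar counts of *Nrl* was not tested. In blue cones *Nrl* stood at 4.48% (3.42 to 5.39), above *Gnat1* at 0.209% and *Cnga1* at 0.172% and below *Pde6a* at 11.7%.

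**Figure D2:**
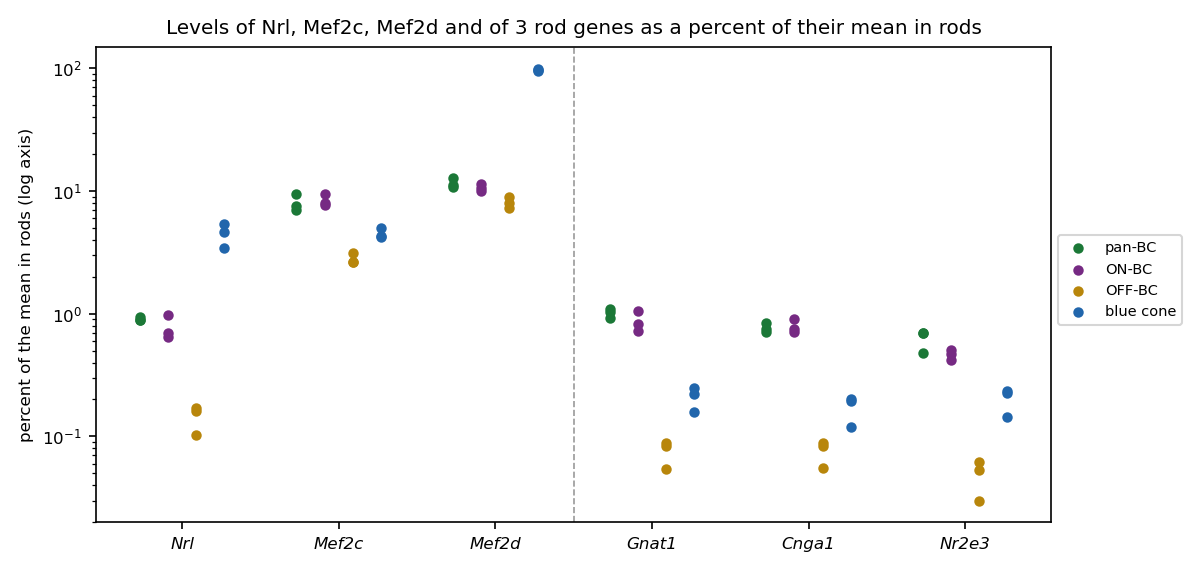
Levels as a percentage of the rod mean (log axis) of *Nrl*, *Mef2c*, *Mef2d* and 3 rod genes, with 1 point per library of pan-BC, ON-BC, OFF-BC and blue cones. *Nrl* lies among the 3 rod genes in pan-BC and ON-BC, whereas *Mef2c* (mean 7.99% in pan-BC) and *Mef2d* (11.6%) lie above them.

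Of the 6 regions assigned to *Nrl*, 4 were called between pan-BC and rods, all higher in rods (over all regions tested, 51.6% were called and 11.2% were higher in rods). Between pan-BC and blue cones all 6 were called (background 35.9%), 3 higher in pan-BC (28.8%) and 3 higher in blue cones (7.13%). The 3 higher in pan-BC had no read in either blue cone library, where DNA absent from the *Nrl*KO allele and closed chromatin cannot be told apart. Between rods and blue cones 3 were called, all higher in rods (background for this direction 1.46%). None was called between ON-BC and OFF-BC. The region over the TSS and that in the last intron are shown because the rod-enriched signal at *Nrl* was strongest there. Both are printed on the strand of the gene from the RefSeq GRCm38 genome, the TSS region only as far as the base before exon 1 (chr14:55524982-55525120). Capitals mark AGGTCA, the core of nuclear receptor sites, upstream of the TSS, and TAATCC, the core bound by CRX and OTX2, in the intron.
Nrl TSS, chr14:55524982-55525120: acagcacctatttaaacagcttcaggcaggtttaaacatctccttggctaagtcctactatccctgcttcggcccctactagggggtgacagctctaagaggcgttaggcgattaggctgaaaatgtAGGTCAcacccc
Nrl last intron, chr14:55521174-55521374: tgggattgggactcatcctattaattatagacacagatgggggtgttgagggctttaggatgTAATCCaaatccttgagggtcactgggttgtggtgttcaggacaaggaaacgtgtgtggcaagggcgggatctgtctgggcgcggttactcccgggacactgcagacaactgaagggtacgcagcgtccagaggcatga

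The region over the TSS (chr14:55524920-55525120, centre 39 bases upstream) had 1645 and 1616 normalized ATAC-seq counts in rods, 648.9 and 493.6 for blue cones, and 199.0 and 129.6 in green cones. Among bipolar cells it had 52.81 and 21.67 (pan-BC), 17.92 and 14.64 (ON-BC), and 25.6 and 53.54 (OFF-BC). Each photoreceptor population lay above all bipolar libraries. Rods were 43.8-fold above pan-BC (log2 fold change -5.55, standard error 0.36, adjusted p = 1.22e-08) and blue cones 15.3-fold (-4.02, standard error 0.36, adjusted p = 4.74e-06), but rods were not called against blue cones (1.52, adjusted p = 0.378). A region 1896 bases upstream, chr14:55526777-55526977, also followed this order, with 355.9 and 353.1 in rods, 126.9 and 121.4 for blue cones, 122.9 and 104.2 in green cones, and 28.8 and 18.25 in pan-BC. Promoter regions, with a centre from 1000 bases upstream to 100 downstream of a TSS, also included chr14:55524171-55524371, at the more proximal TSS, with 499.2 and 565.8 in rods, 167.1 and 107.7 for blue cones, and 22.4 and 15.39 in pan-BC. That promoter region was called against rods (-4.76, adjusted p = 0.000111) and against blue cones (-2.79, adjusted p = 0.0312), the latter no longer when either pan-BC or either blue cone library was left out (adjusted p up to 0.164). Whether copies of the promoter in the *Nrl*-eGFP reporter add to the counts of rods and blue cones was not tested.

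The intron region (chr14:55521174-55521374), between exons ending at 55520887 and starting at 55522088, separated the photoreceptor populations. Rods had 674.4 and 682.4 normalized counts, green cones 233.6 and 169.0, OFF-BC 25.6 and 28.23, ON-BC 22.4 and 11.71, pan-BC 12 and 19.96, and both blue cone libraries 0. With a floor of 3 reads over both blue cone libraries, rods were at least 349-fold and green cones at least 104-fold higher (rods against blue cones, adjusted p = 1.42e-10). The same held on a smaller scale in the last exon: chr14:55520630-55520830, over coding sequence, had 32.71 and 27.78 in rods and 0 and 0 in blue cones, at least 15.6-fold. The other last-exon region, chr14:55518980-55519180, named after its values were seen, had 49.06 and 35.92 against 0 and 0, at least 21.9-fold. Only 24 of 37390 regions with a rod mean of at least 25 had no read in blue cones, and these 3 *Nrl* regions were among them. The span that the *Nrl*KO allele lacks is not given in the sources used here, so that absent DNA and closed chromatin cannot be told apart.

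**Figure D3:**
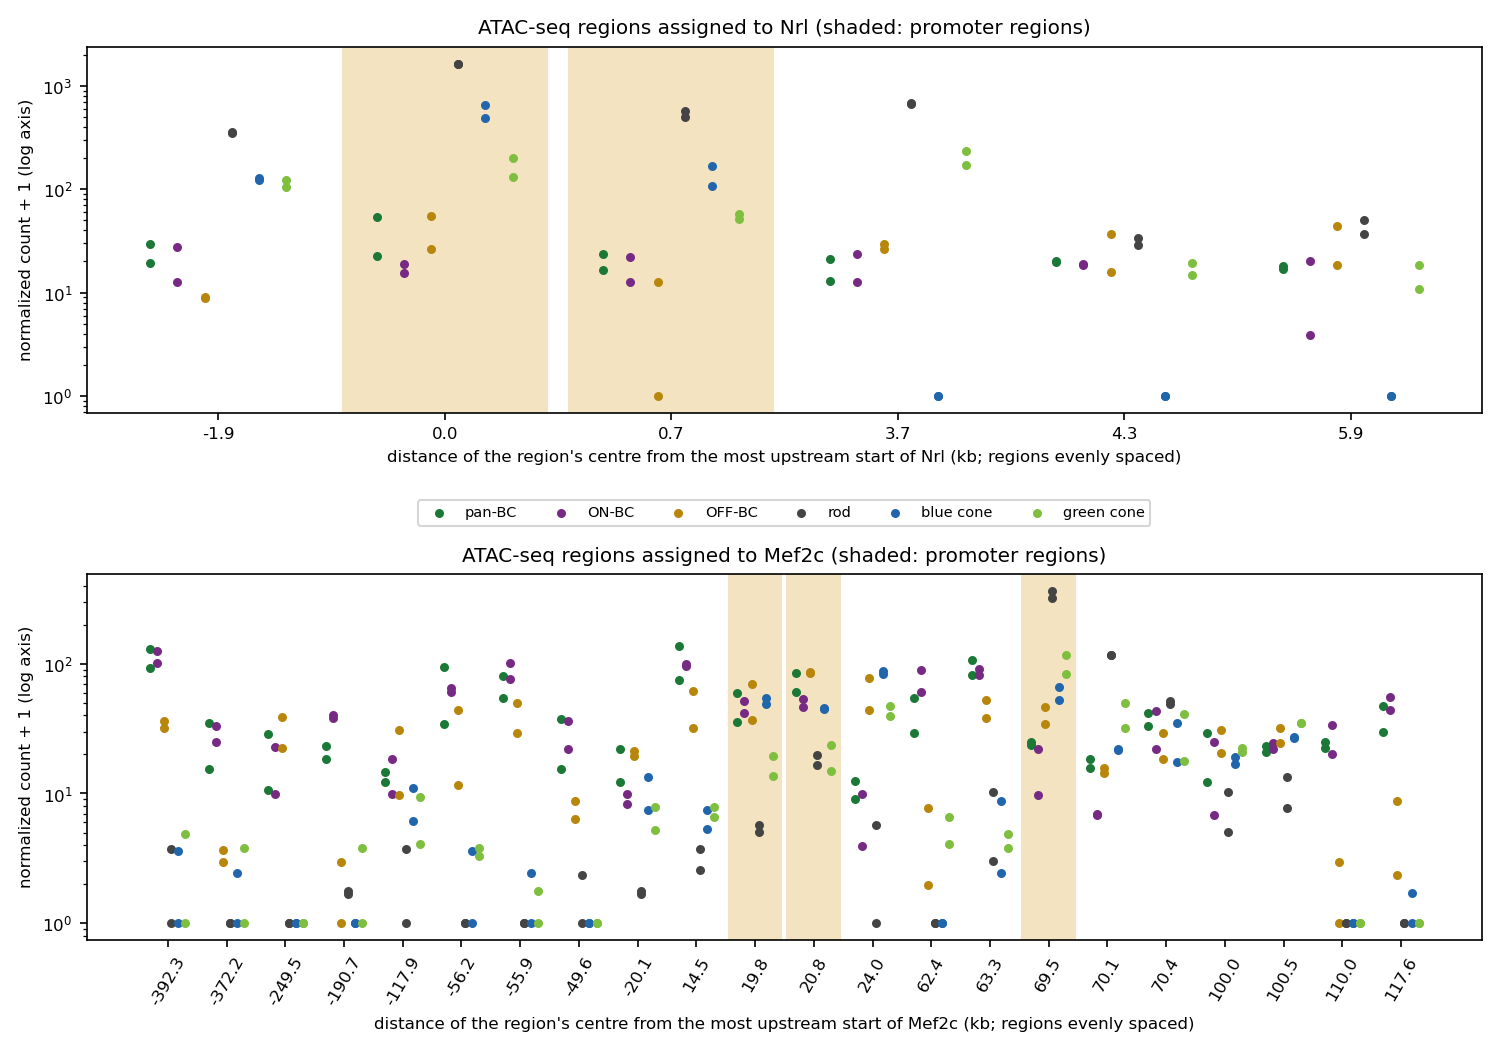
Normalized ATAC-seq counts plus 1 (log axis) at the regions of *Nrl* (top) and *Mef2c* (bottom), ordered by the distance of the region's centre from the most upstream TSS of the gene in kb and evenly spaced, with 1 point per library and promoter regions shaded. The 3 most downstream *Nrl* regions have no reads in blue cones, and the intron region among them is at 674.4 and 682.4 in rods, and the *Mef2c* promoter regions split between one that is high in rods and those that are low there.

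*Maf* (chr8:115703253-115706894, minus strand) encodes the large MAF factor c-MAF. Its normalized counts were low throughout. Blue cones had 42.12, 42.49 and 53.29, ON-BC 44.37, 38.21 and 52.33, pan-BC 15.95, 23.2 and 33.04, OFF-BC 1.118, 3.604 and 13.24, and rods 0.9702, 0 and 3.242. Blue cones and ON-BC overlapped, and so did OFF-BC and rods. Blue cones were 32.7-fold above rods, whose 3 libraries held 4 reads in all (log2 fold change of rods against blue cones -4.52, standard error 0.61, adjusted p = 0.000154), and pan-BC were 17.1-fold above rods (3.57, standard error 0.61, adjusted p = 0.000924). ON-BC exceeded OFF-BC 7.51-fold (3.14, standard error 0.61, adjusted p = 0.0233), a call that ended when ON-BC library 1 or 3 or OFF-BC library 1 or 2 was left out (adjusted p 0.0671 to 0.160), in a fit of these 2 populations alone (0.0701) and with the replicate number as a block in that fit (0.0522). Without OFF-BC library 3, which held the highest OFF-BC value of *Maf*, the log2 fold change was 3.87 (adjusted p = 0.00158). The 8 microglial markers were also highest in blue cones (summed normalized counts 418 to 931, against 63.1 to 109 in rods, 20.2 to 32.3 in pan-BC, 41.0 to 54.7 in ON-BC and 71.5 to 234 in OFF-BC), and none was at 0 in any population. Between ON-BC and OFF-BC these markers ran opposite to *Maf*. Their part in the *Maf* counts was not tested.

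*Maf* had 22 regions, of which 12 were higher in pan-BC than in rods (background for this direction 40.3%) and none lower. Against blue cones 5 were higher in pan-BC (28.8%) and 1 lower (7.13%), and 7 were higher in blue cones than in rods (background 8.56%). The promoter region chr8:115707217-115707417, 423 bases upstream, had 94.55 and 96.11 normalized counts in blue cones and 17.91 and 21.68 in rods. Its bipolar values were 48.81 and 58.73 (pan-BC), 65.7 and 42.46 (ON-BC), and 102.4 and 64.25 (OFF-BC). Blue cones were called above rods there (-2.22, standard error 0.37, adjusted p = 0.0241), but not with any of the 4 libraries left out (0.0554 to 0.144), and pan-BC were not (1.40, adjusted p = 0.238). ON and OFF cells were not called apart at the promoter. A distant region 304777 bases downstream, chr8:115402017-115402217, had 61.97 and 23.36 in OFF-BC, 2.986 and 0 in ON-BC, 53.1 and 54.92 in blue cones, 43.8 and 42.25 in green cones, and 0 and 1.355 in rods. It was higher in OFF-BC than in ON-BC (-4.29, standard error 0.70, adjusted p = 0.00407), opposite in direction to the RNA, but not without ON-BC library 2 (0.0538) or OFF-BC library 1 (0.0827), nor in a fit of these 2 populations (0.0794). It was also higher in blue cones than in rods (-5.16, standard error 0.70, adjusted p = 0.000281). At chr8:115395907-115396107 pan-BC had 52.01 and 35.35 against 1.558 and 1.355 in rods (4.16, standard error 0.57, adjusted p = 7.3e-05). Assignment to *Maf* rests on the nearest TSS alone.

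*Mafg* and *Mafk* encode small MAF factors and differed between bipolar cells and photoreceptors in opposite directions. *Mafg* (chr11:120625117-120634955, minus strand) had normalized counts of 286.1, 360.1 and 363.4 (pan-BC), 423.1, 295.9 and 343.7 (ON-BC) and 231.4, 201.8 and 274.8 (OFF-BC) in bipolar cells, and of 149.4, 169.0 and 169.7 (rods) and 146.7, 104.7 and 103.6 (blue cones) in photoreceptors. Every bipolar library lay above every photoreceptor library. Pan-BC exceeded blue cones 2.84-fold (log2 fold change 1.51, standard error 0.19, adjusted p = 0.0227), a call lost without pan-BC library 2 or 3 or blue cone library 2 or 3 (0.0749 to 0.0813). The 2.07-fold excess over rods (1.04, standard error 0.19) was not past the threshold of 1 (adjusted p = 0.747) but differed from no change (adjusted p = 8.35e-05). *Mafk* (chr5:139791536-139802653, plus strand) had 125.2, 115.8 and 117.8 in rods, 119.6, 135.1 and 119.2 across blue cones, and, among bipolar cells, 32.97, 48.42 and 25.69 (pan-BC), 27.86, 33.31 and 50.28 (ON-BC) and 45.82, 36.04 and 29.79 (OFF-BC). Photoreceptors did not overlap bipolar cells. It was 3.35-fold higher in rods than in pan-BC (-1.76, standard error 0.29, adjusted p = 0.0208) and 3.49-fold higher in blue cones (-1.82, standard error 0.29, adjusted p = 0.0173). The call against rods was lost without pan-BC library 1 or 3 or rod library 1 (0.0507 to 0.102), and that against blue cones without pan-BC library 3 or blue cone library 2 (0.0533 to 0.0893).

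Neither promoter was called in any contrast. That of *Mafg* (chr11:120633548-120633748, just upstream of the TSS) had 380.8 and 374.7 normalized counts in rods, 303.1 and 252.2 for blue cones and 177.6 and 130 in pan-BC (log2 fold change of pan-BC against rods -1.31, standard error 0.19, adjusted p = 0.11), while *Mafg* RNA was higher in pan-BC. This region is also a promoter region of *Gm17586*, so its signal cannot be assigned to *Mafg* alone. Over all promoter regions tested, the median of pan-BC against rods was -0.37. The *Mafk* promoter (chr5:139791362-139791562, 74 bases upstream) had 461.8 and 423.5 in rods, 398.9 and 388.8 for blue cones and 166.4 and 148.8 in pan-BC (-1.48, standard error 0.24, adjusted p = 0.053). An intronic *Mafk* region, chr5:139797857-139798057, had 32 and 28.51 in pan-BC against 0 and 5.421 in rods (3.62, standard error 0.86, adjusted p = 0.008), and the call was lost without rod library 1 (0.159). This region was also called higher in pan-BC than in blue cones, a call lost in 8 settings (adjusted p 0.0593 to 0.402).

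*Mef2c* (chr13:83504017-83667079, plus strand) encodes a MEF2 factor with roles in muscle and neurons. Its normalized counts were 12755, 14706 and 13219 in rods, 1277, 957.3 and 1017 in pan-BC, 1043, 1286 and 1090 in ON-BC, 674.6, 588.1 and 572.1 in blue cones, and 420.2, 360.4 and 357.5 in OFF-BC. All neighbours in this order were separate except pan-BC and ON-BC. Rods were 12.5-fold above pan-BC (log2 fold change -3.65, standard error 0.12, adjusted p = 4.70e-12) and 22.2-fold above blue cones (4.47, standard error 0.12, adjusted p = 4.18e-13). ON-BC exceeded OFF-BC 3.0-fold (1.58, standard error 0.12, adjusted p = 0.00282, and 1.54 with adjusted p = 0.0148 without OFF-BC library 3), and pan-BC exceeded blue cones 1.77-fold, which did not pass the threshold of 1 (0.82, standard error 0.12, adjusted p = 1). Relative to the rod mean, *Mef2c* stood at 7.99% (pan-BC), 8.40% (ON-BC) and 2.80% (OFF-BC), above every rod marker but *Gngt1*, and at 4.51% in blue cones.

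The *Mef2c* locus carried 22 regions, including several promoters that did not move together. Between pan-BC and rods 16 were higher in pan-BC (40.3% of all regions) and 2 in rods (11.2%), between pan-BC and blue cones 12 (28.8%) and 1 (7.13%), and between rods and blue cones 2 on the rod side (1.46%) and 2 on the other (8.56%). Upstream of an internal TSS and at a more distal promoter the signal ran in opposite directions, which is why these stretches are shown, on the plus strand from RefSeq GRCm38, the former cut before its exon. Capitals in the former mark TGCTGA, the core of MAF sites, and TGACCT, the complement of AGGTCA, and the latter held none of the motifs searched.
Mef2c internal TSS, chr13:83573443-83573606: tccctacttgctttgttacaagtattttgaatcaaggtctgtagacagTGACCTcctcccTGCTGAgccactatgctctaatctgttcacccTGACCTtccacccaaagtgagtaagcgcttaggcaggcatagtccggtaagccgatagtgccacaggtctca
Mef2c distal promoter, chr13:83523734-83523934: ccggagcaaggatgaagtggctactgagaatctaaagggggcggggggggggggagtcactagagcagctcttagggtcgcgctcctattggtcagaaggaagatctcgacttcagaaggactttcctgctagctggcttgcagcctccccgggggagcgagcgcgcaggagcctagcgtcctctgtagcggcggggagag

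The internal promoter (chr13:83573443-83573643, centre 64 bases upstream of the TSS at 83573607) had 322.4 and 363.2 normalized counts in rods, 116.0 and 83.09 in green cones, and 51.81 and 65.04 in blue cones. Bipolar cells were lower, with 24 and 22.81 (pan-BC), 20.9 and 8.785 (ON-BC), and 45.8 and 33.1 (OFF-BC). Rods were 14.6-fold above pan-BC (log2 fold change -3.81, standard error 0.35, adjusted p = 2.05e-06) and 5.87-fold above blue cones (2.54, standard error 0.35, adjusted p = 0.00397, and 0.0548 without blue cone library 1). The distal promoter (chr13:83523734-83523934, 178 bases downstream of 1 TSS and upstream of the next) had 4.673 and 4.066 in rods, against 47.92 and 53.48 in blue cones, 18.44 and 12.67 in green cones, and, in bipolar cells, 34.41 and 58.16 (pan-BC), 50.77 and 41 (ON-BC) and 68.7 and 36.02 (OFF-BC). Here rods were the lowest population, 10.6-fold below pan-BC (3.09, standard error 0.43, adjusted p = 0.000233) and 11.6-fold below blue cones (-3.27, standard error 0.43, adjusted p = 0.000752). Its neighbour chr13:83524702-83524902 had 18.69 and 15.59 in rods and 59.21 and 83.24 in pan-BC (1.98, standard error 0.34, adjusted p = 0.0113, lost without pan-BC library 2 or rod library 2, 0.0994 and 0.0590). RNA counts were made per gene and do not tell the transcripts of these promoters apart.

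Away from promoters, 4 *Mef2c* regions were higher in ON-BC than in OFF-BC and 1 was lower (background 7.39% for either direction, 4.58% higher in ON-BC, 2.80% higher in OFF-BC). The largest of these was chr13:83313254-83313454, with 37.33 and 39.53 normalized counts in ON-BC and 0 and 1.947 in OFF-BC (log2 fold change 4.52, standard error 0.80, adjusted p = 0.00591, but 0.0715 without OFF-BC library 1 and 0.0502 with DESeq2 on the reads). The intronic region chr13:83527940-83528140 ran the other way, with 8.959 and 2.928 in ON-BC against 76.79 and 42.83 in OFF-BC, 86.77 and 83.11 in blue cones, 38.42 and 46.47 in green cones, and 4.673 and 0 in rods. It was higher in OFF-BC than in ON-BC (-3.22, adjusted p = 0.0319, lost when ON-BC library 2 or either OFF-BC library was left out, up to 0.260) and higher in blue cones than in rods (-5.17, standard error 0.67, adjusted p = 0.000176). The region with the largest excess in pan-BC over rods, chr13:83448002-83448202, 55932 bases upstream, had 53.61 and 79.82 in pan-BC and 0 and 0 in rods (6.05, standard error 0.67, adjusted p = 3.88e-06). At chr13:83111611-83111811, 392323 bases upstream and over the gene *Gm33073*, pan-BC had 91.21 and 129.4 against 2.59 and 0 in blue cones (5.85, standard error 0.79, adjusted p = 7.54e-05).

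*Mef2d* (chr3:88141941-88172091, plus strand), which encodes the MEF2 factor that acts with CRX in photoreceptors, did not follow *Mef2c*. It counted 2946, 3114 and 3462 normalized counts in rods, which overlapped the 3020, 3164 and 3109 of blue cones. In bipolar cells it had 403.1, 341.0 and 356.0 (pan-BC), 319.9, 364.5 and 338.6 (ON-BC), and 286.1, 252.3 and 232.8 (OFF-BC). Photoreceptors were 8.66-fold (rods) and 8.45-fold (blue cones) above pan-BC (log2 fold changes -3.11 and -3.08, each with a standard error of 0.11, adjusted p = 1.54e-11 and 6.41e-11). Rods and blue cones differed by 0.03 on the log2 scale with a standard error of 0.11, a ratio of 1.02. Of its 13 regions, 6 were higher in rods than in pan-BC (background 11.2%) and none lower (40.3%).

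The strongest *Mef2d* region lay in an intron, 5682 bases downstream of the TSS, and its sequence is shown because it was high in all photoreceptors, with TAATCC and AGGTCA in capitals (RefSeq GRCm38, plus strand).
Mef2d intron, chr3:88147954-88148154: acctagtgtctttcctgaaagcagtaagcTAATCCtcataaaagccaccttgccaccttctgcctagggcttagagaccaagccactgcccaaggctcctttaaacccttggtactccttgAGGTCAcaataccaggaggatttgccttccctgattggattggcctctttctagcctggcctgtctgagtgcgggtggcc
It had 907.3 and 869.4 normalized counts in rods, 518.1 and 409.0 for blue cones, 448.0 and 457.7 in green cones, 125.3 and 101.2 in OFF-BC, 50.41 and 41.05 in pan-BC, and 35.83 and 17.57 in ON-BC. Photoreceptors and bipolar cells did not overlap. Rods were 19.4-fold above pan-BC (log2 fold change -4.26, standard error 0.26, adjusted p = 1.22e-08), blue cones 10.1-fold (-3.31, adjusted p = 2.76e-06), and OFF-BC were above ON-BC (-2.12, standard error 0.26, adjusted p = 0.00633, lost without ON-BC library 2 or OFF-BC library 1, 0.107 and 0.0769, and with a replicate block within these populations, 0.0548, or a fit of them alone, 0.139). The 3 member regions described here as higher in OFF-BC than in ON-BC, at *Maf*, *Mef2c* and *Mef2d*, were all high in blue and green cones, and the part of cone chromatin in the OFF-BC counts was not tested. The promoter region chr3:88141868-88142068, 404 bases upstream, had 457.1 and 475.0 in rods, 204.6 and 183.6 for blue cones, and 76.81 and 64.43 in pan-BC (rods 6.60-fold higher, -2.71, standard error 0.25, adjusted p = 1.15e-05). The region nearest the TSS, chr3:88142213-88142413, was open in both classes, with 582.5 and 555 in rods and 400.1 and 298.8 in pan-BC (-0.72, adjusted p = 1).

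*Mef2a* (chr7:67231163-67376456, minus strand), a broadly expressed MEF2 factor, was similar in all populations but rods. Normalized counts were 1230, 1313 and 1330 in rods, 817.5, 796.0 and 890.4 across blue cones, and 726.5, 790.9 and 827.1 (pan-BC), 821.4, 894.6 and 802.4 (ON-BC) and 697.4, 941.9 and 804.4 (OFF-BC) in bipolar cells. Only rods stood apart from the other populations, all of which overlapped a neighbour. It was not called in any contrast, although the 1.65-fold excess of rods over pan-BC (log2 fold change -0.72, standard error 0.11) differed from no change (adjusted p = 1.42e-05). None of its 3 promoter regions was called, and between pan-BC and rods they differed by 0.94 (chr7:67373430-67373630), 0.12 (chr7:67373135-67373335) and -0.54 (chr7:67372725-67372925) on the log2 scale. Of its 13 regions, 5 were higher in pan-BC and 2 in rods, near the shares over all regions (40.3% and 11.2%), the largest change being that of chr7:67414961-67415161, with 36.01 and 39.34 in pan-BC and 0 and 0 in rods (5.27, adjusted p = 0.00019).

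*Mef2b* (chr8:70152761-70167488, plus strand), the MEF2 gene known best from germinal centre B cells, had few counts. Bipolar values were 70.2, 116 and 75.86 (pan-BC), 107.3, 62.71 and 88.24 (ON-BC) and 76.0, 38.45 and 64.0 (OFF-BC), and photoreceptor values 40.75, 11.27 and 20.53 (rods) and 41.37, 27.32 and 23.68 (blue cones). All neighbours in the order of means overlapped, though pan-BC did not overlap rods. Pan-BC were 3.61-fold above rods (log2 fold change 1.95, standard error 0.41, adjusted p = 0.0400), and this call was lost with DESeq2 on the reads and without pan-BC library 2 or 3 or rod library 2 or 3 (0.0543 to 0.217 over all settings that lost it). A read-through gene, *Gm45929*, overlaps *Mef2b*, which makes its counts uncertain. Its promoter (chr8:70152612-70152812) had 57.61 and 66.71 normalized counts in pan-BC and 37.38 and 45.4 in rods (0.58, adjusted p = 1), and an intronic region, chr8:70160468-70160668, had 55.29 and 39.98 in rods and 1.6 and 3.421 in pan-BC (-3.82, standard error 0.69, adjusted p = 0.0011).

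**Figure D4:**
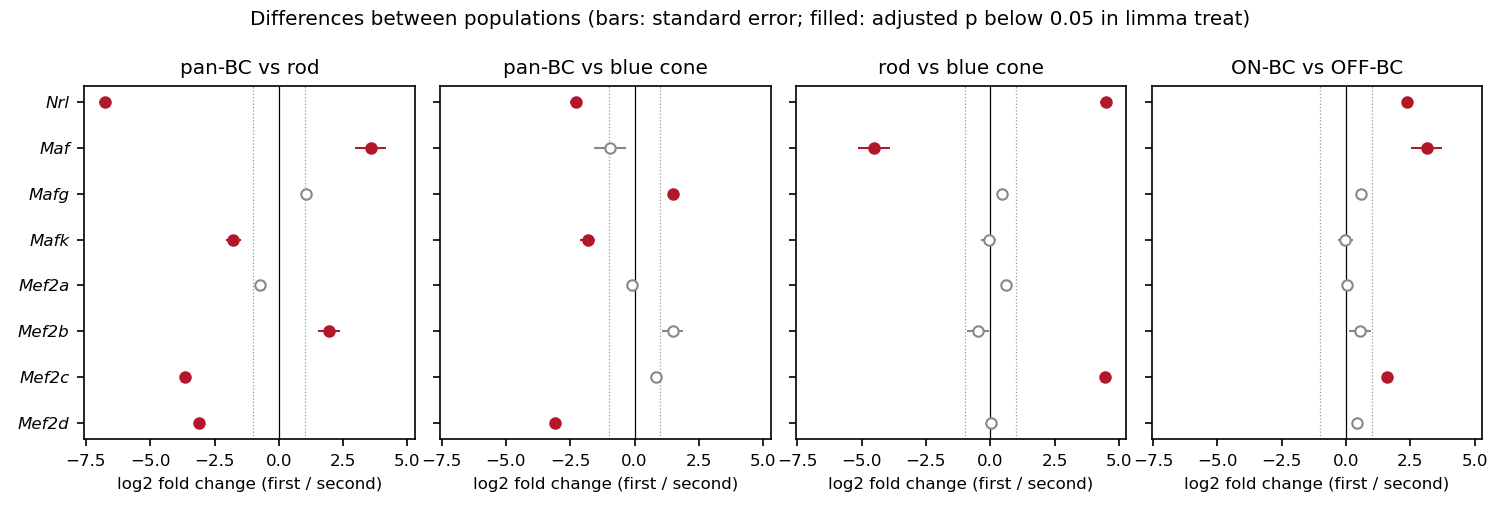
Log2 fold change of the 8 genes in the 4 RNA-seq contrasts, with bars of 1 standard error and filled points for calls against a log2 fold change of 1. *Nrl* and *Mef2c* are on the rod side of both rod contrasts, *Maf* on the other, and *Mef2d* is called only in the contrasts of pan-BC with photoreceptors.

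Levels can be compared between genes only per length. In RPKM, here reads scaled to the exon length of the gene and to the library total, rods had 279 for *Nrl*, 95.4 for *Mef2c*, 28.8 for *Mef2d* and 11.1 for *Mef2a*, with the other 4 members lower, from 0.0198 (*Maf*) to 5.0 (*Mafg*). In blue cones *Mef2d* led with 29.4, followed by *Nrl* with 13.2 and *Mef2a* with 7.54. By mean, bipolar cells were led by *Mafg*, at 13.2 (pan-BC), 13.9 (ON-BC) and 9.30 (OFF-BC). Its libraries overlapped those of *Mef2c* in pan-BC (11.1 to 14.6 against 8.52 to 11.3). In OFF-BC they overlapped those of *Mef2a* (8.31 to 10.9 against 7.30 to 10.9). By normalized count, *Mafg* ranked only 4, 3 and 4 in these populations. Its place rests on an exon length of 1639 bases, whose last exon stops at 120628348, short of the gene end at 120625117. Among the MEF2 genes, *Mef2c* made up 70.0% of the per-length sum in rods (libraries 68.1 to 72.2) and 10.6% in blue cones, where *Mef2d* made up 68.9% (67.2 to 70.4). In pan-BC *Mef2c* and *Mef2a* held 36.3% and 32.1%, and in OFF-BC *Mef2a* held the largest share with 49.2% (41.6 to 56.4). Among the 4 MAF genes, *Nrl* made up 97.5% in rods, 65.5% in blue cones and 18.5% in pan-BC, whereas *Mafg* made up 74.5% in pan-BC. Blue cones carry the *Nrl*KO allele, whose missing span is not given here. Dividing by the full 2542 exon bases therefore leaves the level and share of *Nrl* uncertain there. The part of rod RNA in its bipolar share was not tested.

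Promoter signal and RNA did not always run together. Of 14 promoter regions of members, 6 were called between pan-BC and rods, 4 of them higher in rods (background over promoter regions 31.0%, and 13.8% higher in rods), at *Nrl*, *Mef2c* and *Mef2d*, and 2 higher in pan-BC (17.2%), both at *Mef2c*. Between pan-BC and blue cones 2 were called (15.3%), between rods and blue cones 3 (6.58%) and between ON-BC and OFF-BC none (1.27%). Over all 84 regions of members, 49 were called between pan-BC and rods (background 51.6%), 34 between pan-BC and blue cones (35.9%) and 7 between ON-BC and OFF-BC (7.39%), which are near the shares over all regions. The 34 include the 3 *Nrl* regions that had no read in blue cones. Between rods and blue cones 14 were called, 5 on the rod side (1.46%) and 9 on the blue cone side (8.56%). On the rod side, 3 were the *Nrl* regions without a read in blue cones, where absent DNA and closed chromatin cannot be told apart, and 2 were at *Mef2c*. On the blue cone side, 7 were at *Maf* and 2 at *Mef2c*.

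**Figure D5:**
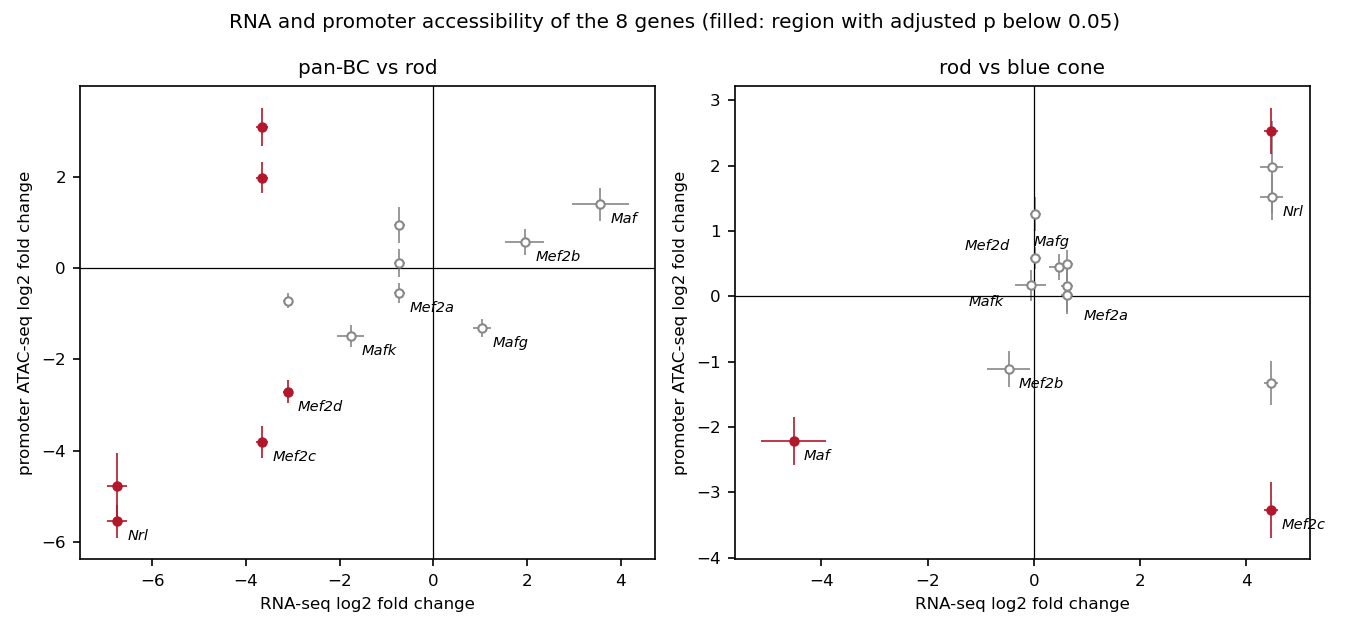
Log2 fold change of each promoter region against that of the RNA of its gene, for pan-BC against rods (left) and rods against blue cones (right), with 1 point per promoter region, bars of 1 standard error, filled points for called regions and both axes in log2 units. *Nrl* lies on the rod side in both readouts against pan-BC, and the *Mef2c* promoters fall on both sides of 0.

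4 lists of related genes, fixed with earlier results of these data known, gave the surroundings of the members. Of 9 other MAF and CNC factors, 6 were tested (*Mafa*, *Maff* and *Nfe2* were not). Against rods 1 was higher in pan-BC (27.8%) and 1 lower (15.8%), with a list median of 0.16 against 0.21 over all genes tested. *Bach2*, a CNC repressor, had mean normalized counts of 227 in blue cones, 125 in pan-BC and 10.3 in rods, and was called between pan-BC and rods and between rods and blue cones (log2 fold changes 3.63 and -4.48). *Nfe2l2*, the oxidative stress factor NRF2, averaged 1223 normalized counts in rods, 2234 in blue cones and 49.3 in pan-BC, and both photoreceptor populations were called above pan-BC (-4.60 and -5.47). It was the only list member called between pan-BC and blue cones (median -0.47), and *Bach2* the only one between rods and blue cones (median -0.78). None of the 6 was called between ON-BC and OFF-BC (median -0.29).

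The 8 factors listed as acting above or beside *Nrl* were mostly higher in photoreceptors. Against pan-BC, 7 were higher in rods (15.8% of all genes tested) and none lower (27.8%, list median -3.39). Blue cones were higher than pan-BC at 5 (13.7%) and lower at 1, *Nr2e3* (22.7%, median -2.02). *Nr2e3*, a nuclear receptor, changed most against rods (-7.31 for pan-BC, 8.93 against blue cones), and *Esrrb* (4.13) and *Rorb* (1.63) were also higher in rods than in blue cones. *Prdm1*, the factor BLIMP1 that restrains bipolar fate, was higher in blue cones (1995) and rods (768) than in pan-BC. Of 13 rod genes listed as known to need NRL, all 13 were higher in rods than in pan-BC (15.8% of all genes, list median -6.54), *Pde6b* by most (-8.00). Against blue cones, which lack *Nrl*, 9 were higher in rods (4.63%) and none lower (median 3.32), *Cnga1* by 9.19. The rest of the list was not called there. Between ON-BC and OFF-BC, 4 were higher in ON-BC (2.95%) and none lower (3.60%, median 1.38), *Gnat1* by 3.54. Against blue cones, 2 were higher in pan-BC (22.7%), *Gnat1* by 2.30 and *Cnga1* by 2.18, and 7 lower (13.7%, median -1.61), *Pde6a* by most (-4.70). In pan-BC, *Gnat1*, *Cnga1* and *Nr2e3* stood at only 1.02%, 0.767% and 0.624% of the rod mean. The part of rod RNA in these differences, and in those between ON-BC and OFF-BC, was not tested. The authors removed genes ascribed to low-level rod or cone contamination from their comparisons, which was not done here.

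Of 12 MEF2 partners, pan-BC were higher than rods at 5 (27.8% of all genes tested) and lower at 2 (15.8%, list median 1.20), 6 were higher in pan-BC than in blue cones (22.7%) and 1 lower (13.7%, median 1.29), and rods and blue cones differed at 1 in each direction (4.63% of genes higher in rods and 11.3% in blue cones, median 0.03). *Hdac7*, a class II deacetylase, had means of 379 in pan-BC, 33.5 in blue cones and 4.17 in rods, and was called between rods and blue cones (-2.81). *Hdac9*, of the same class, was higher in rods (5538) and blue cones (5237) than in pan-BC (1464), and higher in ON-BC than in OFF-BC (2.22). *Camk4*, a calcium-dependent kinase, had a mean of 1490 in pan-BC and was called against both photoreceptor populations (means 48.9 and 85.4). *Ppp3cc*, a calcineurin subunit, was higher in rods than in pan-BC (-2.85) and than in blue cones (1.76), and *Ppp3ca*, another subunit, was higher in ON-BC than in OFF-BC (1.57).

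The genes whose levels were most like each member over the 15 libraries (Pearson's r of log2 values, given as a description, since libraries of a population are not independent points) differed between members. *Nrl* was closest to *Reep6* (0.994), *Herc3* (0.992) and *Esrrb* (0.992), and *Mef2c* to *Gnat1* (0.995), *Cnga1* (0.995) and *Nr2e3* (0.991). *Mef2d* was closest to *Kat7* (0.995), *Cpt1a* (0.995) and *Kdm4c* (0.994). *Mafg* was closest to *Dip2a* (0.967), *Myom1* (0.967) and *Brsk2* (0.965), *Mafk* to *9030624J02Rik* (0.980), *Tars* (0.972) and *Gfm1* (0.971), and *Maf* to *Kcne2* (0.962), *Ifitm10* (0.958) and *Tpst1* (0.957). *Mef2a* was closest to *Smchd1* (0.960), *Zfp81* (0.959) and *Rbm39* (0.958), and *Mef2b* to *Cdh6* (0.921) and *Lrrc75b* (0.915). Ranked by Spearman's correlation, 3 of these 23 names returned.

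Motifs were searched as plain letters on both strands of the 84 member regions and of all 110715 regions. TAATCC, the CRX and OTX2 core, was in 17 member regions (20.2%, against 21.8% of all), TGCTGA, the MAF core, in 19 (22.6% against 17.9%), AGGTCA in 12 (14.3% against 15.7%), and TATTTNTA, the MEF2 core, in 8 (9.52% against 4.86%). Of the 8 regions with the MEF2 core, 5 were among the 13 of *Mef2a*. These matches are letters in a window and were not tested for binding.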

How the data were processed

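RNA-seq was measured in 3 libraries for each of 5 populations and ATAC-seq in 2 for each of 6, grouped by their labels. The authors aligned RNA-seq reads to GRCm38 with STAR 2.7.0d and counted them on genes with HTSeq. They aligned ATAC-seq reads with Bowtie2, kept fragments of at most 150 bases, and counted reads in regions of 200 bases around peaks called with MACS2 2.1.1. The deposited signal values of both tables are counts that the authors divided by 1 size factor per library, and all 230384 values above 0 for genes and 1212862 for regions came out as whole reads, within 0.01 of a read, when divided by the step of their library. The main test was therefore limma 3.58.1 on log2 of the value plus 1, as planned for a table without raw counts. It understates changes of genes with few reads. All libraries of an assay entered 1 model with 1 level per population. Features passing filterByExpr of edgeR 4.0.16 (14024 genes, 108448 regions) were tested with treat against a log2 fold change of 1, adjusted by Benjamini-Hochberg within a contrast and called below 0.05.

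Regions were assigned to the nearest TSS of 45756 RefSeq transcripts. RPKM values were computed from recovered reads and exon lengths. The fit was tested on simulated data. The replicate numbers of ON-BC and OFF-BC were not treated as pairs. Named were all 8 members, their 3 most correlated genes, every promoter region, the region with the largest called change per member and contrast, and, in each list of related genes, the member with the largest called change in each direction. Left out were the regions of *Maf* and *Mef2a* with the largest called change between pan-BC and blue cones (chr8:115408894-115409094 and chr7:67421700-67421900). Other list members, where 5 or fewer were called, were named after their values were seen. The members and lists were chosen with earlier results of these data known. Alternatives were edgeR, DESeq2 1.42.0, other scalings, pseudocounts and filters, a test against no change, fits of 2 populations, a replicate block, regions within 50 kb and leaving out each library. The 14 peak files, among them those of 2 double-sorted green cone libraries, were not used here. Floors cover counting error only. A few genes that the lists or the correlations would name are not reported here, and list counts and medians are over the reported genes.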

Additional observations from a re-analysis of the deposited data

How the results depend on the processing

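Counts of called members (6, 4, 3 and 3 genes, and 49, 34, 14 and 7 regions, in the order pan-BC against rods, pan-BC against blue cones, rods against blue cones, ON-BC against OFF-BC) moved under some settings. A test against no change called 5 genes in each of the last 2 contrasts, and 55, 39 and 20 regions in the last 3. Regions within 50 kb gave 28 and 20 in the first 2. For rods against blue cones, edgeR called 22 regions, and a fit of these 2 populations alone called 0 with limma, with 25 at an unadjusted p under 0.05. For ON-BC against OFF-BC, DESeq2 called 4 regions and the fit of 2 populations 2. Leaving out each library gave 4 to 5, 2 to 4, 3 to 3 and 2 to 3 genes (2 in the second contrast without pan-BC library 3 or blue cone library 2), and 42 to 46, 26 to 29, 9 to 10 and 1 to 6 regions. The 9 regions came without either blue cone library, and the ON-BC against OFF-BC count was 3 without ON-BC library 2 and 1 without OFF-BC library 1. Of 520 values of single genes under alternatives, 477 kept direction and call, 25 lost the call, 8 gained it and 10 changed sign. Of 662 for regions, 607 kept both and 55 lost the call. The lost calls of genes are those of *Mafk*, *Mafg*, *Mef2b* and *Maf* given with their values above, and scaling to the library total also ended both of *Mafk* (adjusted p = 0.166 and 0.0941), whereas the *Mef2b* call ended as well under TMM scaling, no filter and a fit of 2 populations.

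Sign changes were of values near 0 that no setting called. Between pan-BC and blue cones *Mef2a* was at 0.19 when scaled to the library total. Between rods and blue cones *Mef2d* was at -0.034 under that scaling and ran from -0.032 to 0.0843 with libraries left out, and *Mafk* from -0.0905 to 0.0015. Between ON-BC and OFF-BC *Mafk* was at 0.025 with edgeR and 0.0027 with TMM and ran from -0.26 to 0.16 with libraries left out, and *Mef2a* from -0.054 to 0.16. The causes were not tested. Scaling to the library total moved the median of all genes from 0.21 to 0.55 against rods and from 0.16 to 0.44 against blue cones.

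A replicate block over all libraries called the same numbers, 6, 4, 3 and 3 genes and 49, 34, 14 and 7 regions. Within ON-BC and OFF-BC alone it called 2 genes, without *Maf* (adjusted p = 0.0522), and 6 regions, without the *Mef2d* intron region (0.0548). Deviations of ON-BC and OFF-BC libraries with the same number correlated at -0.076, 0.222 and -0.065 for RNA-seq. Those of libraries with different numbers ran from -0.1465 to 0.212. The labels give ON-BC and OFF-BC libraries with the same number the same age but name no shared animal, sort or litter, and the numbers were not taken as pairs.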
